A study of Mus musculus with 18 samples.

Results

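Nuclear RNA of mice homozygous for the R388W allele of Nup93 was compared with nuclear RNA of heterozygous mice. The comparison rests on 6 of the 18 samples in the series, taken by their sample names: 3 named Nuclear_homo (genotype Nup93 R388W/R388W, called Nuclear_Hom or Hom here) and 3 named Nuclear_heto (Nup93 R388W/+, called Nuclear_Het or Het). All 24602 genes of the count table entered, and 15112 of them had enough counts in the nuclear libraries to be tested. The study measured RNA-seq in nuclear and in total RNA of 3 genotypes, and 3 wild-type libraries (Nuclear_WT) serve here to place the levels of the other groups. The allele is a knock-in, the strain was given as 129S1/SvlmJ, and every mutant library here therefore carries at least 1 R388W copy. The sample labels name the material only as mouse tissue, whereas the series text names isolated podocytes. Age, sex, the number of animals and any pooling are not given in the sources used here. The labels do not tie the 3 libraries of any group to different animals. All p-values are therefore about the spread among the libraries at hand, which may be technical.

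Nup93 is a scaffold protein of the inner ring of the nuclear pore, where it anchors other nucleoporins of the ring and of the central channel. Pores carry mature mRNA out of the nucleus and proteins into it, so nuclear RNA holds transcripts that are being made, processed or kept before export. Inherited variants of the human gene are a known cause of steroid-resistant nephrotic syndrome, a disease of the podocyte, the epithelial cell that forms the filtration slit of the glomerulus.

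The 6 libraries held 17459570 to 22471767 counts each, and 17728 to 18021 genes had at least 1 count. Podocyte markers were present, for example Podxl, the charged surface protein of the cell, at 180.5 to 188.6 CPM (TMM-scaled CPM, a gene's count relative to the scaled library total). Markers of other kidney cells were present as well, among them the phosphate transporter Slc34a1 of the proximal tubule at 2768 to 3478 CPM and the sodium transporter Slc12a1 of the thick ascending limb at 2404 to 2868 CPM. The libraries therefore did not hold podocyte transcripts alone, and they are called by their labels here. Xist, the RNA of the inactive X chromosome, stood at 496 to 547 CPM in Nuclear_Het and 497 to 519 CPM in Nuclear_Hom, but at 0.411 to 0.766 CPM in Nuclear_WT. Summed over Uty, Kdm5d, Eif2s3y and Ddx3y, Y-linked transcripts came to 160 to 165 CPM in Nuclear_WT, 2.33 to 2.96 CPM in Nuclear_Het and 0.511 to 0.747 CPM in Nuclear_Hom. Hom and Het were therefore alike in Xist, and any place given to Nuclear_WT cannot be told apart from this difference in sex-linked transcripts. Rn45s, the ribosomal RNA precursor, stood at 9723, 9184 and 1674 CPM in Nuclear_Het and at 2363, 2762 and 1481 CPM in Nuclear_Hom. It did not pass the test (log2 -1.64, edgeR adjusted p = 0.107), and without it and the related Lars2 and Mir6236 there were 3138 higher and 3389 lower calls.

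Hom nuclei held less RNA from genes of immune cells, the interferon response and tubular injury than Het nuclei did, and more from genes of energy metabolism and tubular transport. In all, 3236 genes were called higher in Hom, 21.4% of those tested, and 3293 were called lower, 21.8%, by edgeR's quasi-likelihood test at an adjusted p under 0.05. Large changes lay mostly on the lower side. Changes of at least 2-fold were called in 126 genes that were higher (0.834% of those tested) and in 731 that were lower (4.84%). Over all genes tested the median log2 value was -0.001. Of all calls 49.6% were higher with TMM scaling and 33.5% with library totals alone, which gave 2257 higher and 4475 lower calls. Nup93 itself stood at 22.5, 21.9 and 23.6 CPM in Het and at 19.6, 22.3 and 18.8 CPM in Hom, so the groups overlapped. Its log2 value was -0.16 ± 0.07 (SE; edgeR adjusted p = 0.047), and this call was lost in 7 of 17 alternative analyses. Since the allele substitutes 1 residue, this transcript level is no check of the genotype labels.

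**Figure D1:**
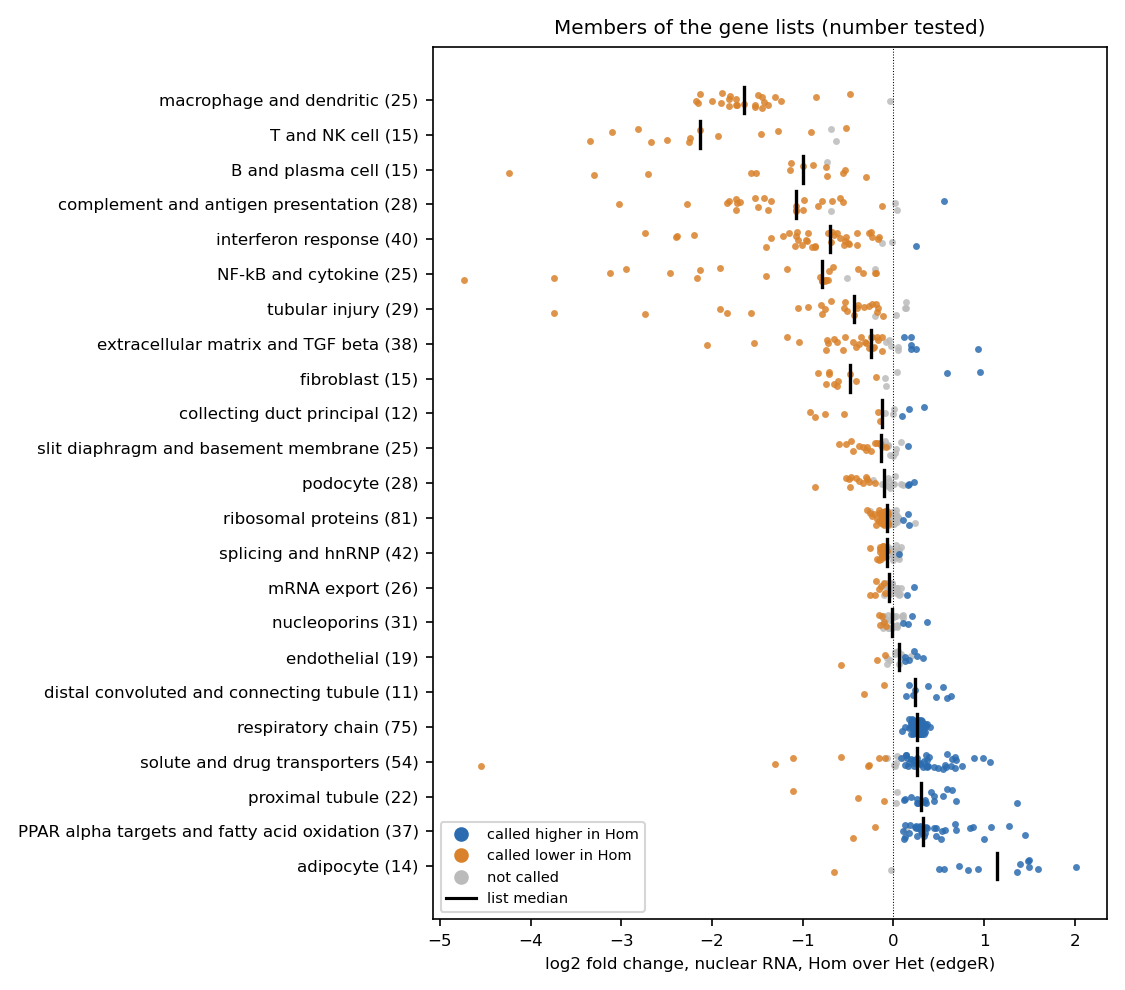
Log2 fold change of nuclear RNA, Hom over Het (x axis, edgeR), of each tested member of 23 gene lists (rows, with the number tested); blue points were called higher in Hom, orange lower, grey neither, and black bars are list medians. Immune lists lie to the left, with the T and NK cell median at -2.13 and the macrophage and dendritic median at -1.65, and all 75 respiratory chain genes lie a little to the right of 0.

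Markers of macrophages and dendritic cells, the phagocytes that survey the kidney interstitium, were lower in Hom as a group. Of 25 markers tested 24 were called lower and 0 higher, with a median log2 value of -1.65, and 22 were lower by at least 2-fold. Cd74, the invariant chain that escorts MHC class II molecules, stood at 946, 924 and 899 CPM in Het and at 274, 284 and 273 CPM in Hom. The groups lay far apart (log2 -1.74 ± 0.02, edgeR adjusted p = 3.89e-74), and Nuclear_WT, at 376, 383 and 382 CPM, lay nearer to Hom. Macrophage proteins without a role in antigen presentation followed: Mpeg1, a pore-forming protein of phagosomes, stood at 64.3, 64.0 and 65.6 CPM in Het and at 15.4, 13.9 and 14.4 CPM in Hom. Ctss, the lysosomal protease cathepsin S, was lower by log2 -2.17, and Adgre1, which encodes the F4/80 antigen, by log2 -1.80. Csf1r, the receptor for macrophage colony-stimulating factor, was the marker that did not pass (log2 -0.04), with 95.3, 96.1 and 92.8 CPM in Het and 93.2, 90.3 and 92.9 CPM in Hom. Summed over the list the markers came to 2718 to 2852 CPM in Het, 942 to 979 CPM in Hom and 1039 to 1075 CPM in Nuclear_WT. In bulk RNA fewer cells of a type and less RNA per cell cannot be told apart.

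Lymphocyte and plasma cell markers were lower in Hom as well, some of them by large factors. Jchain, the joining chain of secreted antibody, stood at 386, 379 and 391 CPM in Het and at 20.3, 19.7 and 21.5 CPM in Hom (log2 -4.23 ± 0.04, edgeR adjusted p = 1.74e-88). All 3 Nuclear_WT libraries lay lower still, at 4.62, 4.44 and 5.89 CPM. Mzb1, a chaperone of antibody assembly in plasma cells, and Pou2af1, a B cell coactivator, were lower by log2 -3.30 and -2.70. Of 15 B and plasma cell markers 14 were called lower and 0 higher (median log2 -1.001). Of 15 T and NK cell markers 13 were called lower and 0 higher (median log2 -2.13), led by the coreceptor Cd4 (log2 -3.35), the interleukin 7 receptor Il7r (-3.10), the kinase Lck (-1.93) and Thy1 (-1.47). These T cell transcripts were scarce: Cd4 stood at 5.71, 5.20 and 5.64 CPM in Het and at 0.651, 0.395 and 0.577 CPM in Hom. Ltb, a cytokine of lymphocytes, was also lower (log2 -2.60).

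Neutrophil transcripts were low in every library and lower in Hom. The calcium-binding proteins S100a8 and S100a9 were lower by log2 -3.67 and -2.97, with S100a9 at 6.75, 5.66 and 5.48 CPM in Het and at 0.977, 0.703 and 0.577 CPM in Hom. Of 8 neutrophil and mast cell markers tested 7 were called lower and 1 higher, the mast cell tryptase Tpsb2 (log2 0.81). Ngp, a granule protein, had no count in any Hom library and 1.24, 1.22 and 1.45 CPM in Het. With a minimum mean of 5 CPM no T and NK cell or neutrophil marker was left to test, and 6 of the 15 B and plasma cell markers were left.

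**Figure D2:**
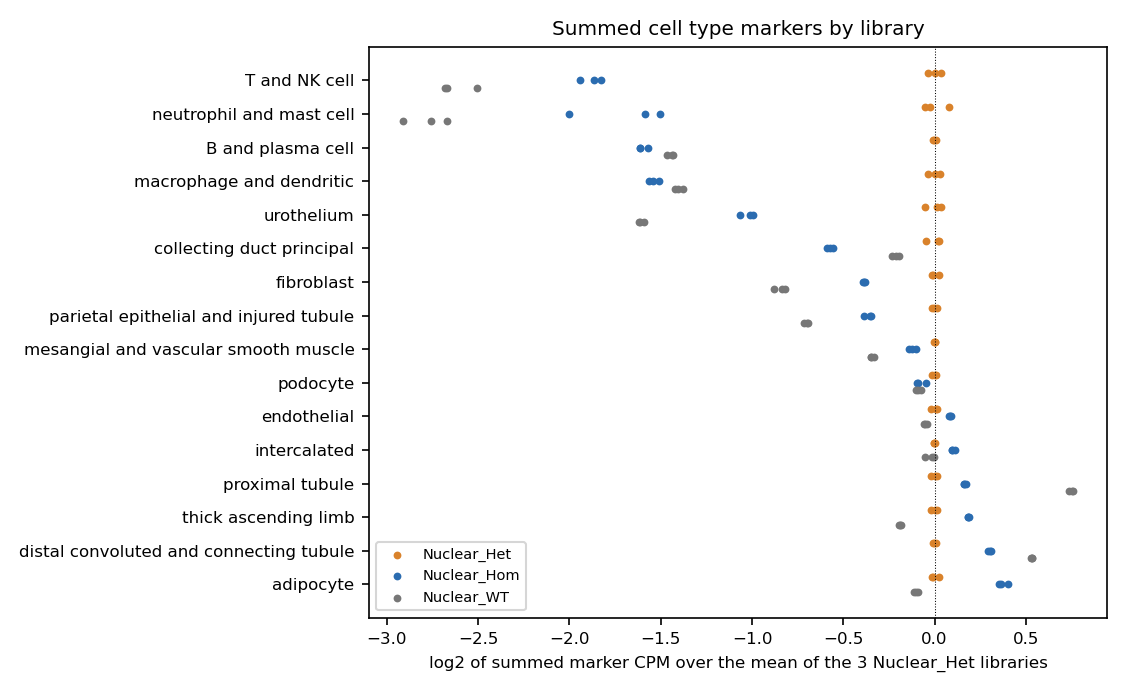
Summed CPM of the markers of each cell type (rows) in each nuclear library, as log2 of the ratio to the mean of the 3 Nuclear_Het libraries (x axis), for Het (orange), Hom (blue) and WT (grey). Summed T and NK cell markers were 0.272 times and macrophage markers 0.344 times the Het mean in Hom, whereas podocyte markers were at 0.947 times and adipocyte markers at 1.30 times.

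Complement and antigen presentation genes, which mark targets for phagocytes and show peptides to T cells, were lower with the immune markers. The lists are not independent, since Cd74, H2-Aa, H2-Eb1 and H2-Ab1 are also among the macrophage and dendritic markers. Of 28 genes tested 24 were called lower and 1 higher, with a median log2 value of -1.08. C4b, a component of the classical complement cascade, stood at 81.8, 90.5 and 88.5 CPM in Het and at 12.2, 10.1 and 9.55 CPM in Hom. Nuclear_WT held 11.5, 10.5 and 10.9 CPM of C4b, within the range of Hom (log2 -3.03 ± 0.06 for Hom over Het, edgeR adjusted p = 5.27e-60). C3, the central component, was lower by log2 -1.07, from 342, 346 and 350 CPM to 164, 165 and 164 CPM. It differed from C4b in its place: Nuclear_WT held 18.7, 18.5 and 16.4 CPM of C3, far below both mutant groups. The class II genes H2-Aa, H2-Eb1 and H2-Ab1 were lower by log2 -1.52, -1.50 and -1.38. H2-K1 and H2-D1, class I heavy chains that most nucleated cells express, were lower by log2 -1.08 and -0.99. The gene called higher was Cfd, adipsin, a complement protease made by fat cells (log2 0.56).

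Class II promoters hold a Y box, the site of the factor NF-Y. Its motif is shown here for the genes of this list that had it, the class II genes H2-Aa and H2-Eb1 and the class I gene H2-D1. The motif CTGATTGG was searched on both strands in the 250 bases before the start site of RefSeq promoters (build GRCm38.p6). It was found in 3 of 17 genes of the list with a promoter in the table, and in 4.43% of 27025 gene symbols. In the lines that follow capitals mark the motif, or its reverse complement CCAATCAG. H2-Aa lies on chromosome 17, minus strand, at 34287842 to 34287899, H2-Eb1 on the plus strand at 34305780 to 34305837, and H2-D1 on the plus strand at 35263016 to 35263073 of the same chromosome.
H2-Aa: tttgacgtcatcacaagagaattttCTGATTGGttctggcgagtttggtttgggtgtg
H2-Eb1: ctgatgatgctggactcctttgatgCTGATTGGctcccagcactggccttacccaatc
H2-D1: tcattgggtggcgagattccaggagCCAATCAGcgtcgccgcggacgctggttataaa

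The interferon response was lower in Hom across most of its measured genes. Of 40 genes tested 37 were called lower and 1 higher, with a median log2 value of -0.70, and 13 were lower by at least 2-fold. B2m, the light chain of MHC class I, stood at 728, 708 and 719 CPM in Het and at 329, 349 and 346 CPM in Hom (log2 -1.07 ± 0.03, edgeR adjusted p = 1.59e-56). The immunoproteasome subunit Psmb8 was lower by log2 -1.22 and the GTPase Iigp1 by -2.19. The chemokines Cxcl9 and Cxcl10, which draw in T cells, were lower by log2 -2.74 and -1.41. Gbp3, a guanylate-binding protein, was the member called higher (log2 0.25), and Ifit2 (-0.01) and Ifih1 (-0.12) did not pass. Of the 38 called members 37 had their Nuclear_WT mean nearer to Hom than to Het, and 26 had it below both groups.

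Interferon-stimulated response elements bind transcription factors that switch these genes on, and the sequence around them is shown for 3 members, picked with their values known. The motif, GAAA followed by any 2 bases and again GAAA, was searched on both strands of the same 250 bases. It was found in 15 of 30 interferon genes with a promoter in the table, and in 3.46% of the 27025 symbols. All 15 genes with the motif were among the members called, 14 of them lower and Gbp3 higher. Of all 40 interferon genes tested 38 were called, so this count does not set the genes with the motif apart. A match is a description of the sequence and not evidence of binding. B2m is on chromosome 2, plus strand, 122147523 to 122147582, Igtp on chromosome 11, plus strand, 58199497 to 58199555, and Ifit1 on chromosome 19, plus strand, 34640760 to 34640838. Capitals mark the motif or its reverse complement, which occurs at 2 places in Ifit1.
B2m: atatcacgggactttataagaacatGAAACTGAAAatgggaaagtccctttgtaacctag
Igtp: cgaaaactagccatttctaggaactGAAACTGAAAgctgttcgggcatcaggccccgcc
Ifit1: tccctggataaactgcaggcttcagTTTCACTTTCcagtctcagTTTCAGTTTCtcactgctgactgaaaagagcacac
Igtp, an immunity-related GTPase, stood at 22.5, 19.95 and 20.1 CPM in Het and at 9.95, 10.5 and 9.13 CPM in Hom. Ifit1, which binds foreign RNA, stood at 13.5, 13.7 and 11.5 CPM in Het and at 7.53, 5.84 and 5.25 CPM in Hom. Neither gene overlapped between the groups.

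NF-kB targets and cytokines were lower too, with 23 of 25 called lower, 0 higher and a median log2 value of -0.78. Lcn2, the iron-carrier protein NGAL that injured tubule cells release, stood at 92.8, 89.5 and 89.2 CPM in Het and at 6.79, 7.38 and 5.98 CPM in Hom (log2 -3.74 ± 0.06, edgeR adjusted p = 2.05e-68). Nuclear_WT held 4.57, 4.33 and 4.02 CPM of it, just below Hom. The acute phase protein Saa3 was lower by log2 -4.74, from 6.09, 7.09 and 7.52 CPM to 0.465, 0.220 and 0.0525 CPM. The chemokine Ccl8 fell from 14.9, 12.96 and 15.03 CPM to 0.884, 0.703 and 0.420 CPM (log2 -4.39). Adhesion molecules of inflamed vessels and tubules fell less, with Icam1 at log2 -0.72 and Vcam1 at -0.75. The transcription factors moved least: Nfkb1 and Rela were lower by log2 -0.20 and -0.21.

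Slpi, a protease inhibitor of epithelial secretions, gave the largest fall among the called genes whose mean reached 5 CPM and whose groups did not overlap. It stood at 43.2, 43.6 and 39.5 CPM in Het and at 1.21, 1.098 and 1.73 CPM in Hom (log2 -4.98 ± 0.11, edgeR adjusted p = 1.43e-59). Nuclear_WT held 0.868, 0.766 and 0.661 CPM of Slpi, below every Hom library. Other large falls were those of the membrane mucin Muc4 (log2 -3.57), the protease inhibitor Serpina3g (-2.85), the metalloprotease Pappa2 (-2.63) and lysozyme 1, Lyz1 (-2.54). Lyz1 has a near-identical neighbour in Lyz2 (log2 -1.90), so the split of reads between them is uncertain.

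Tubular injury genes, which kidney epithelium turns on when damaged, were lower in 24 of 29 members with 0 higher (median log2 -0.43). The keratins of stressed simple epithelium, Krt18 and Krt19, were lower by log2 -0.79 and -1.06, and S100a6 by log2 -0.69. Spp1, osteopontin, was abundant and fell modestly, from 2114, 2093 and 2101 CPM to 1645, 1704 and 1697 CPM (log2 -0.32). Havcr1, the injury marker KIM-1, did not follow. It stood at 22.5, 24.1 and 22.4 CPM in Het and 25.6, 24.7 and 25.4 CPM in Hom, and its log2 value of 0.13 did not pass (edgeR adjusted p = 0.0693). The fibrinogen chains Fga (0.14) and Fgg (0.13) did not pass either. Markers of parietal epithelium and injured tubule were called lower in 12 of 17 and higher in 1. This list shares Lcn2, Krt18 and Krt19 with the tubular injury list, and Lcn2 is in the NF-kB list as well.

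Matrix and fibroblast transcripts were lower in smaller steps. Of 38 extracellular matrix and TGF beta genes 26 were called lower and 6 higher (median log2 -0.25). Tgfbi, a matrix protein induced by TGF beta, stood at 38.9, 38.2 and 38.4 CPM in Het and at 20.1, 18.8 and 16.9 CPM in Hom (log2 -1.04 ± 0.06, edgeR adjusted p = 2.29e-27). Of 15 fibroblast markers 10 were called lower, among them the proteoglycan decorin, Dcn (log2 -0.62), and collagen Col3a1 (-0.65). Igfbp6 (log2 0.95) and Mfap5 (0.60) were called higher.

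Urothelial genes, which line the renal pelvis, were lower alongside these groups. This list was chosen after Ivl, Krt5 and other epithelial genes had been seen among the falls, so its direction is given as a description only. All 17 genes were lower, with a median log2 value of -1.05. Ivl, involucrin, stood at 11.4, 11.3 and 11.8 CPM in Het and at 1.67, 1.45 and 1.42 CPM in Hom. Summed over the list the transcripts came to 766 to 815 CPM in Het, 380 to 399 CPM in Hom and 259 to 264 CPM in Nuclear_WT. Markers of collecting duct principal cells were called lower in 6 of 12 and higher in 3, beside 21.8% and 21.4% of all genes tested. The water channel Aqp2 stood at 1457, 1436 and 1343 CPM in Het and at 761, 791 and 768 CPM in Hom (log2 -0.87 ± 0.02, edgeR adjusted p = 6.55e-45), and Aqp3 and Aqp4 were lower by log2 -0.75 and -0.92. Sodium channel subunits of the same cells did not follow: Scnn1b was higher (log2 0.17) and Scnn1g was at -0.01. What part the urothelial transcripts have in the falls of other lists was not tested.

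Podocyte transcripts were slightly lower in Hom. Of 28 markers tested 12 were called lower and 3 higher, with a median log2 value of -0.11 and none (0) changed by 2-fold. Cdkn1c, the cell cycle inhibitor of resting podocytes, stood at 61.1, 63.2 and 61.0 CPM in Het and at 32.7, 34.2 and 35.2 CPM in Hom (log2 -0.86 ± 0.05, edgeR adjusted p = 1.89e-29). Nephrin, Nphs1, the adhesion protein of the slit, was lower by log2 -0.30, the actin regulator Synpo by -0.38 and the adaptor Cd2ap by -0.34. Wt1 and Podxl, which also define the cell, gave log2 values of 0.11 and 0.00 that did not pass (edgeR adjusted p = 0.461 and 0.925). Magi2, Clic5 and Col4a3 were called higher (log2 0.23, 0.17 and 0.16). Slit diaphragm and basement membrane genes, a partly shared list, were called lower in 14 of 25 and higher in 1. Endothelial markers were called higher in 6 of 19 and lower in 3 (median log2 0.06), with the receptor Kdr at log2 0.26 and Vwf at -0.58. The shares over all genes tested were 21.4% higher and 21.8% lower, and the endothelial counts were not far from these.

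**Figure D3:**
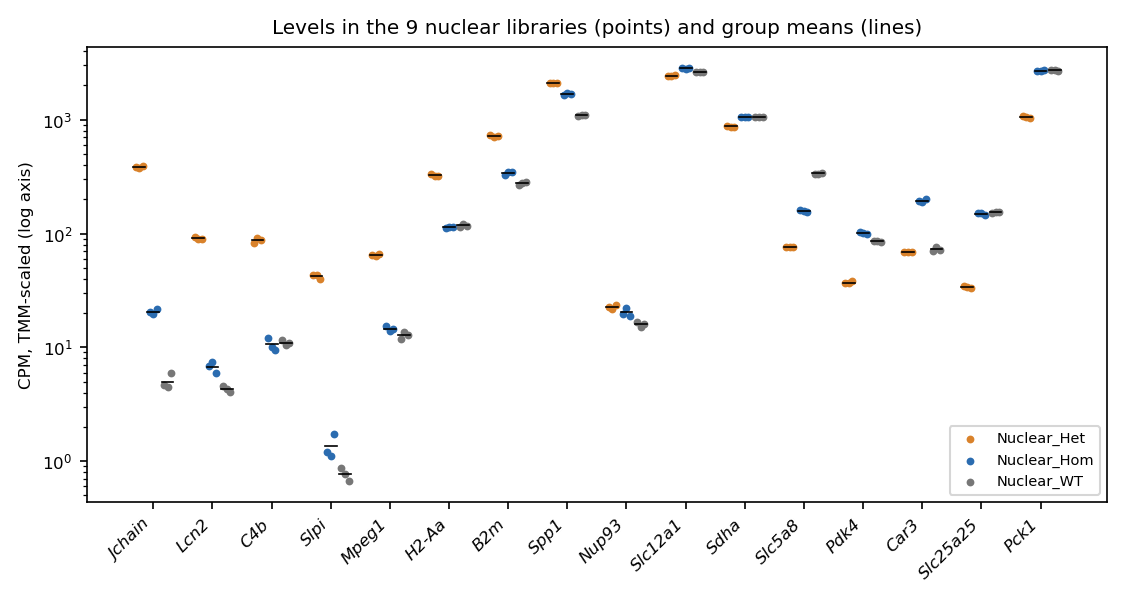
CPM (log axis) of 16 genes in each of the 9 nuclear libraries: Het in orange, Hom in blue, WT in grey, with black lines for group means. Jchain, Lcn2, C4b and Slpi fell to low levels in Hom, Nup93 overlapped between Het and Hom, and for Pck1 and Slc25a25 the WT points lie beside those of Hom.

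Genes of the proximal tubule, which reclaims most filtered solutes, were higher in Hom. Of 22 markers 17 were called higher and 3 lower (median log2 0.30). Pck1, the rate-limiting enzyme of gluconeogenesis, stood at 1069, 1058 and 1026 CPM in Het and at 2694, 2703 and 2728 CPM in Hom. Its groups lay far apart (log2 1.37 ± 0.02, edgeR adjusted p = 1.51e-74), and Nuclear_WT, at 2750, 2735 and 2704 CPM, lay with Hom. The dicarboxylate transporter Slc13a3 (log2 0.69), the amino acid transporter Slc6a19 (0.59), the water channel Aqp1 (0.45) and megalin, Lrp2 (0.34), were higher as well. Slc7a13, Cyp4b1 and Gpx3 were called lower (log2 -1.10, -0.39 and -0.10). Summed over the list the markers came to 39490 to 40420 CPM in Het, 44740 to 45060 CPM in Hom and 66630 to 67830 CPM in Nuclear_WT. This list holds Kap, an androgen-responsive gene, and Slc7a13, which is high in male kidney. The androgen-responsive list summed to 5618 to 5701 CPM in Het, 6613 to 6890 CPM in Hom and 24270 to 25620 CPM in Nuclear_WT. The part of such genes in the proximal tubule sums was not tested.

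Solute and drug transporters, a list that shares several genes with these markers, were called higher in 40 of 54 and lower in 8 (median log2 0.26). The lactate and butyrate transporter Slc5a8 stood at 76.2, 75.8 and 75.4 CPM in Het and at 163, 159 and 156 CPM in Hom, and Nuclear_WT held 336, 335 and 344 CPM. The urate transporter Slc22a12 was higher by log2 0.68. In the list of gluconeogenesis and glycolysis 16 of 29 genes were called higher and 8 lower, beside 21.4% and 21.8% of all genes tested. Ketohexokinase, Khk, and the fructose transporter Slc2a5 were higher by log2 0.60 and 0.70, whereas hexokinase 2, Hk2, and the lactate exporter Slc16a3 were lower by log2 -1.12 and -1.53. In the renin-angiotensin list 11 of 19 were called higher and 2 lower (4 lower with library totals alone), among them the peptidases Ace (log2 0.41) and Anpep (0.40).

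Nuclear-encoded respiratory chain genes were higher without exception. All 75 tested were called higher, with a median log2 value of 0.26 beside -0.001 over all genes, and 0 reached 2-fold. Atp5b, the catalytic subunit of ATP synthase, stood at 3058, 3038 and 2988 CPM in Het and at 3603, 3695 and 3707 CPM in Hom (log2 0.28 ± 0.02, edgeR adjusted p = 4.17e-26). Sdhb of complex II was higher by log2 0.40, and Ndufv1 and Ndufa10 of complex I by log2 0.34 and 0.35. The mean of Nuclear_WT lay above both groups for 39 of the 75 genes and between them for 36.

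Some respiratory chain promoters carry matches to the site of NRF1, a transcription factor of mitochondrial genes. Shown here are 2 of those that hold several copies, and Ndufb4, which has 3, is not shown. The motif, GCGCA followed by any base and GCGC, was found on either strand in the 250 bases before the start of 12 of 62 respiratory chain genes with a promoter in the table, and in 4.23% of the 27025 symbols. Sdha, the flavoprotein of complex II, has it at 3 places on chromosome 13, minus strand, 74350241 to 74350363. Cox6a1, a subunit of cytochrome c oxidase, has it at 2 places on chromosome 5, minus strand, 115349041 to 115349145. Capitals mark the motif.
Sdha: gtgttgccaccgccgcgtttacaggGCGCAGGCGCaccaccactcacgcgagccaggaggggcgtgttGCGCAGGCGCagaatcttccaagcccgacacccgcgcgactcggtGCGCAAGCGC
Cox6a1: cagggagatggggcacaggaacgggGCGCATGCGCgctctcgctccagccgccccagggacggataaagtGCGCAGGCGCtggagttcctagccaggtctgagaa
Sdha stood at 883, 869 and 865 CPM in Het and at 1051, 1047 and 1048 CPM in Hom (log2 0.27). Cox6a1 stood at 351, 351 and 337 CPM in Het and at 409, 429 and 423 CPM in Hom (log2 0.28). In both genes the groups did not overlap.

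A mixed list of PPAR alpha targets and fatty acid oxidation genes was mostly higher, as was the respiratory chain. PPAR alpha is a sensor of fatty acids that drives their oxidation. Of 37 genes 34 were called higher and 2 lower, with a median log2 value of 0.33. Pdk4, the kinase that turns off pyruvate oxidation, stood at 36.5, 36.6 and 37.9 CPM in Het and at 103, 101 and 98.4 CPM in Hom, with 85.3, 86.3 and 84.5 CPM in Nuclear_WT (log2 1.45 ± 0.04, edgeR adjusted p = 3.74e-51). The omega-hydroxylases Cyp4a10 and Cyp4a14 were higher by log2 1.08 and 0.85. The beta-oxidation enzymes Acadm and Acadvl were higher by log2 0.31 and 0.35. Ucp2 (log2 -0.44) and the fatty acid carrier Cd36 (-0.20) were lower. Slc25a25, a mitochondrial carrier of ATP and magnesium, was the second of the named rises: it stood at 34.6, 33.6 and 33.0 CPM in Het and at 151, 151 and 144 CPM in Hom (log2 2.14 ± 0.04, edgeR adjusted p = 8.43e-65). Nuclear_WT held 152, 153 and 156 CPM of it, just above Hom.

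Fat cell transcripts were higher in Hom and included several of the largest rises. Of 14 adipocyte markers 12 were called higher and 1 lower, with a median log2 value of 1.14, and 7 were higher by at least 2-fold. Ucp1, the uncoupling protein of brown fat, stood at 2.71, 3.01 and 2.69 CPM in Het and at 11.1, 11.8 and 11.2 CPM in Hom (log2 2.02 ± 0.12, edgeR adjusted p = 9.83e-27). Car3, a carbonic anhydrase abundant in fat, stood at 68.2, 68.8 and 68.8 CPM in Het and at 192, 191 and 199 CPM in Hom. The lipid droplet proteins Cidea (log2 1.597), Plin1 (1.49) and Cidec (1.39) were higher as well. Adipoq (0.82) and Fabp4 (0.50) rose less, and Pparg was lower (log2 -0.66). Summed over the list the markers came to 910 to 932 CPM in Het, 1171 to 1214 CPM in Hom and 848 to 861 CPM in Nuclear_WT, so Hom had the highest sums. The part of these fat cell transcripts in the rises of the fatty acid lists was not tested.

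The other large rises belonged to no single list. Among called genes that averaged 5 CPM or more and did not overlap between groups, Apoa4, an apolipoprotein, rose most (log2 2.23 ± 0.09, edgeR adjusted p = 1.06e-36), from 5.33, 5.76 and 3.87 CPM to 22.9, 22.7 and 25.2 CPM. Prss35, a serine protease (log2 2.06), and Dpys, a pyrimidine-degrading enzyme (1.998), were higher in Hom and higher still in Nuclear_WT, with Dpys at 19.4, 18.9 and 18.4 CPM there. Bhmt, which remethylates homocysteine (log2 1.44), and Cyp26b1, which degrades retinoic acid (1.46), stood lower in Nuclear_WT than in either mutant group. Bhmt, for example, was at 75.2, 71.8 and 73.9 CPM in Het, at 190, 201 and 209 CPM in Hom and at 44.6, 42.5 and 43.3 CPM in Nuclear_WT. Sfrp5 (log2 1.37), a secreted Wnt inhibitor, and Aspg (1.31), an asparaginase, completed the 15.

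Distal convoluted and connecting tubule genes were mostly higher, and other distal lists less so. Of 11 markers of the distal convoluted and connecting tubule 9 were called higher and 2 lower (median log2 0.24). The calcium buffer Calb1 stood at 199, 196 and 202 CPM in Het and at 298, 312 and 318 CPM in Hom, and klotho, Kl, and the sodium-calcium exchanger Slc8a1 were higher by log2 0.46 and 0.60. The calcium channel Trpv5 was lower (log2 -0.33). In the thick ascending limb Egf stood at 1354, 1341 and 1337 CPM in Het and at 2166, 2152 and 2184 CPM in Hom (log2 0.69 ± 0.02, edgeR adjusted p = 4.00e-51). Umod, the limb's most specific product, was at log2 0.03 and did not pass. Of the 10 markers of the limb 5 were called higher and 1 lower. Only 3 were higher without Nuclear_Het replicate 3, without Nuclear_Hom replicate 2, with library totals alone or with a minimum mean of 5 CPM. Of 11 intercalated cell markers 4 were called higher and 3 lower (median log2 -0.07), and 5 were lower with library totals alone. Among all genes tested 21.4% were called higher and 21.8% lower. With so few members, the intercalated and thick ascending limb counts are not read as a shift of these lists.

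Nuclear pore and RNA processing genes changed little, although the allele lies in a pore protein. Of 31 nucleoporins 4 were called higher and 5 lower, with a median log2 value of -0.01. For comparison with this and the next lists, 21.4% of all genes tested were called higher and 21.8% lower. Direct partners of Nup93 in the inner ring did not pass: Nup205 was at log2 0.01, Nup188 at -0.11, Nup155 at -0.10 and Nup35 at -0.06. The membrane nucleoporin Ndc1 gave the largest value (log2 0.37 ± 0.10, edgeR adjusted p = 0.00087), from 7.61, 7.91 and 8.43 CPM to 10.2, 11.2 and 9.44 CPM. Gle1, which releases mRNA on the outer face of the pore, was higher by log2 0.20, and Ranbp2 and Ahctf1 were lower by -0.11 and -0.12. These counts were unstable in both directions: DESeq2 called 2 higher and 2 lower, and library totals alone gave 2 higher and 9 lower. Without Nuclear_Het replicate 3 there were 2 lower, without Nuclear_Het replicate 1, Nuclear_Hom replicate 2 or Nuclear_Hom replicate 3 there were 3 lower, and without the last also 2 higher. Nuclear transport receptors and Ran cycle genes were called lower in 7 of 29 and higher in 2, for example the importin Kpnb1 (log2 -0.18), and mRNA export factors lower in 7 of 26 and higher in 2. Of the export factors 4 were lower without Nuclear_Het replicate 1 or Nuclear_Hom replicate 2, and 11 with library totals alone. With library totals alone 14 of the 29 receptors were called lower.

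Splicing factors and ribosomal protein genes shifted by small amounts. Of 42 splicing factors and hnRNPs 18 were called lower and 1 higher, with a median log2 value of -0.07. Srsf3 was at 168, 157 and 159 CPM in Het and at 134, 137 and 134 CPM in Hom (log2 -0.25 ± 0.03, edgeR adjusted p = 2.62e-11). Of 81 ribosomal protein genes 45 were called lower and 3 higher (median log2 -0.07), for example Rps9 (log2 -0.24). A mixed list of nuclear-retained transcripts and noncoding RNAs gave 7 lower and 1 higher of 26, with 3 lower without Nuclear_Het replicate 3 and 4 lower without Nuclear_Hom replicate 2. The share called lower over all genes tested was 21.8%. Malat1, an RNA of nuclear speckles, was at log2 -0.19 and did not pass (edgeR adjusted p = 0.112), and Neat1, the scaffold of paraspeckles, was at log2 -0.06 (edgeR adjusted p = 0.032).

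Lists of acute signalling, clock and BMP signalling genes held calls in both directions, beside 21.4% of all genes tested called higher and 21.8% lower. The counts called lower in the clock and BMP lists lay near that share. Of 35 immediate early genes 17 were called lower and 7 higher. Egr1, a growth factor response gene, stood at 22.9, 23.1 and 23.5 CPM in Het and at 10.5, 9.97 and 9.86 CPM in Hom (log2 -1.19), and Fos and Socs3 were lower by log2 -1.62 and -1.58. Klf10 was higher, from 28.2, 28.4 and 31.5 CPM to 64.5, 59.3 and 59.9 CPM (log2 1.06). Clock genes were called higher in 8 of 21 and lower in 4. The repressor Nr1d1 was higher (log2 0.98) and Per2 and Cry1 were lower (-0.61 and -0.59), and the hour at which tissue was taken is not given in the sources used here. Of 31 BMP and SMAD genes 12 were called higher and 7 lower. The BMP antagonist Grem1 was lower by log2 -3.56, from 5.47, 4.95 and 4.78 CPM in Het to 0.419, 0.483 and 0.367 CPM in Hom. The BMP targets Id1, Id2, Id3 and Id4 were higher by log2 0.90, 0.42, 0.45 and 0.83. In the cell cycle list 15 of 33 were called lower and 3 higher, led by Mki67 (log2 -1.56) and Top2a (-1.57). These were scarce transcripts, and 5 of the 16 cell cycle genes averaging 5 CPM or more were called lower.

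Of 25 fatty acid synthesis and storage genes 16 were called higher and 7 lower, with a median log2 value of 0.27. The desaturase Scd2 stood at 406, 410 and 405 CPM in Het and at 165, 158 and 152 CPM in Hom (log2 -1.36 ± 0.03, edgeR adjusted p = 7.13e-61), whereas Scd1 was higher by log2 0.53. Srebf1, the transcription factor of fatty acid synthesis, was lower by log2 -0.77. In the cholesterol list 13 of 24 were called lower and 4 higher. Cyp51 of sterol synthesis was among those higher (log2 0.37). Chaperones of the heat shock response were called higher in 10 of 28 and lower in 2 (median log2 0.04), and with library totals alone 5 were lower and the median was -0.01. The mitochondrial chaperonin Hspd1 was higher by log2 0.40, and the inducible Hspa1b was lower by -0.49. Proteasome subunits were called higher in 11 of 38 and lower in 0 (median log2 0.06), and 7 were higher with library totals alone. Over all genes tested 21.4% were called higher and 21.8% lower.

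Some transcripts known to be high in male mouse kidney were lower in Hom although both groups had high Xist. Slco1a1, an organic anion transporter, stood at 10.5, 11.02 and 9.83 CPM in Het and at 0.512, 0.307 and 0.525 CPM in Hom (log2 -4.54 ± 0.16, edgeR adjusted p = 1.35e-43). Nuclear_WT held 239, 235 and 243 CPM. Cyp2j13 and Cyp7b1 were lower by log2 -2.54 and -1.74. Het levels came to 4.36% of the Nuclear_WT mean for Slco1a1, 3.29% for Cyp2j13, 3.25% for Cyp7b1, 2.38% for Slc7a13, 3.91% for Acsm3 and 3.11% for Ugt2b37. In Hom the same shares were 0.187%, 0.563%, 0.980%, 1.11%, 1.9% and 1.18%. The Y-linked sum was at 1.6% of Nuclear_WT in Het, from 47 to 58 counts a library, and at 0.375% in Hom, from 11 to 17 counts. What part these Y-linked counts have in the falls was not tested. In the whole list of androgen-responsive tubule genes 11 of 23 were called lower and 9 higher, the latter including Kap (log2 0.27) and Hdc (0.68). The list was not split into genes that androgen raises and genes that it lowers, so these counts are not counts of male-high genes.

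Nuclear_WT was nearer to Hom than to Het for most of the genes called lower and for fewer of those that rose strongly. A Nuclear_WT mean beyond that of Hom also counts as nearer to Hom, so nearness does not mean like levels. Of the 3293 genes called lower, the Nuclear_WT mean was below both groups for 1882, between them for 920 and above both for 491, and on the log2 scale it was nearer to Hom than to Het for 2483 (75.4%). Of the 731 lower by at least 2-fold it was nearer to Hom for 686 (93.8%), and it was below both groups for 575. Of the 3236 called higher it lay above both groups for 1801, between them for 831 and below both for 604, and it was nearer to Hom for 2270 (70.1%). Of the 126 higher by at least 2-fold it was nearer to Hom for 43 (34.1%) and below both groups for 57. Among lists, all 24 called macrophage and dendritic markers and all 23 called NF-kB genes had Nuclear_WT nearer to Hom, whereas 1 of 13 called adipocyte markers did. These places are descriptions: the sex-linked transcripts of Nuclear_WT differed from those of both mutant groups.

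**Figure D4:**
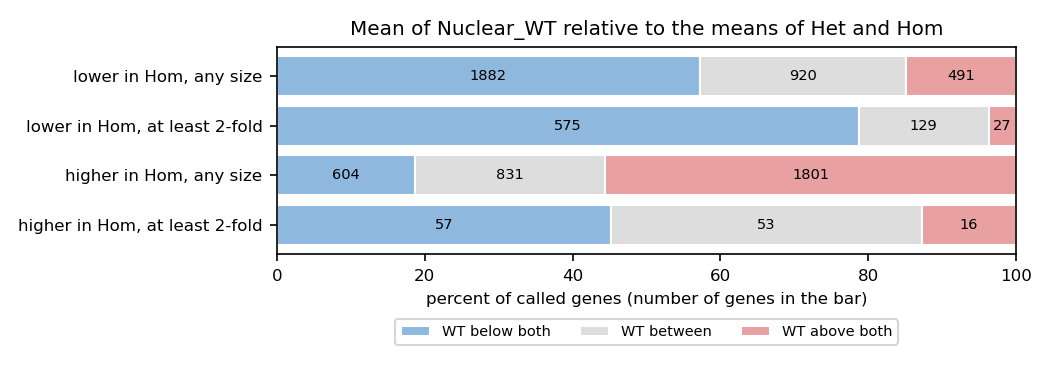
Share of genes (x axis, percent) whose mean in Nuclear_WT lay below, between or above the means of Het and Hom, for genes called lower or higher in Hom at any size or by at least 2-fold; numbers in the bars are genes. For the 731 genes lower by at least 2-fold the WT mean was below both groups in 575.

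Total RNA of the same genotypes gave a different picture. No library is shared between the contrasts, so the difference could be tested in 12 libraries. In the total RNA libraries Xist stood at 0.343 to 1.69 CPM and the Y-linked genes summed to 152 to 164 CPM, so nuclear and total libraries of Het, and likewise of Hom, also differed in sex-linked transcripts, which cannot be told apart from the RNA fraction. Hom against Het in total RNA gave 4916 genes higher (32.2% of 15271) and 5134 lower (33.6%). The change differed between the fractions for 9737 genes by edgeR's interaction test. It was higher in nuclear than in total RNA for 4834 (31.7%) and lower for 4903 (32.1%). With library totals alone the median difference of all genes shifted by -0.21 and 28.8% of the calls were higher, in place of 49.6%. Of 3310 genes called higher in nuclear RNA in this fit, 757 were higher and 1885 lower in total RNA. Of 3278 called lower, 648 were lower and 1555 higher in total RNA.

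The lists separated in the same way. Macrophage and dendritic markers had a median log2 value of 0.03 in total RNA, with 8 of 25 higher and 3 lower, and the difference between fractions was called lower for 23 of them. Interferon genes had a median of 0.11 in total RNA, and the difference was called lower for 38 of 40 and higher for 1. Tubular injury genes were called higher in total RNA in 21 of 29 and lower in 3. Respiratory chain genes had a median of -0.29 in total RNA with 61 of 75 lower, and the difference was called higher for 71 and lower for 0. Ribosomal protein genes were higher in total RNA in 78 of 81 (median log2 0.66), and podocyte markers in 20 of 28 (0.48). Adipocyte markers had a median of -0.48 in total RNA, with the difference called higher for 12 of 14. Lcn2 stood at 11.3, 8.91 and 9.15 CPM in Total_Het and at 80.4, 77.1 and 78.3 CPM in Total_Hom, the opposite of its fall in nuclear RNA.

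**Figure D5:**
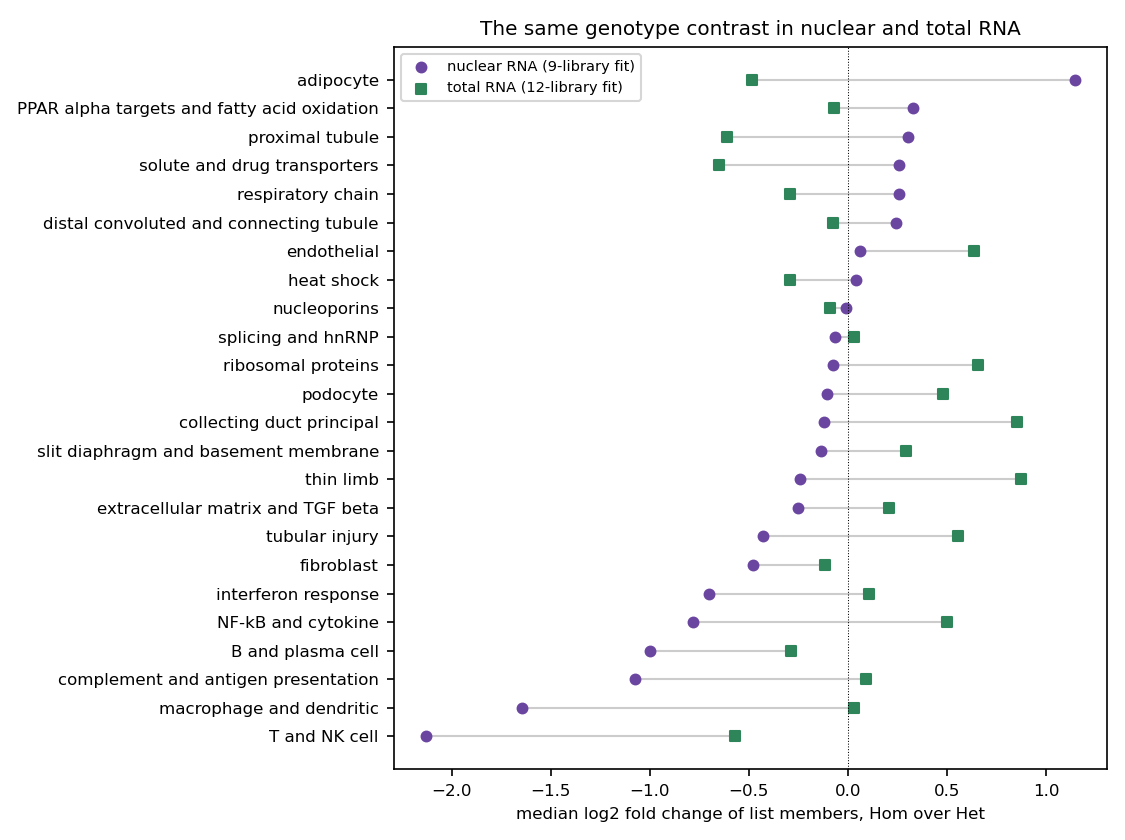
Median log2 fold change of list members, Hom over Het (x axis), in nuclear RNA (purple circles) and total RNA (green squares), for 24 lists ordered by the nuclear value. The interferon medians are -0.70 and 0.11, and those of the respiratory chain 0.26 and -0.29.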

How the data were processed

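RNA-seq libraries were made from TRIzol-extracted RNA with a stranded KAPA mRNA kit, per the labels' protocols. The deposited values are raw counts per gene for all 18 libraries, and the submitters' processing notes name CASAVA, STAR 2.5.2b, featureCounts, DESeq2 and the build mm9. The strand setting of the counting is not given in the sources used here, so overlapping antisense genes cannot be told apart.

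All 9 nuclear libraries were fitted together in edgeR 4.0.16 (R 4.3.3) with its default low-count filter, TMM scaling and the robust quasi-likelihood test, and the Hom over Het contrast was taken. The difference between nuclear and total RNA was the interaction in a second fit of 12 libraries. P-values were adjusted by Benjamini-Hochberg over all genes tested, with a threshold of 0.05. The 3 total RNA libraries of wild-type mice were not used. Alternatives included DESeq2 1.42.0, other scalings and filters, the replicate number as a block and leaving out each library. The fits were tested on simulated data.

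Named genes are Nup93, the 15 largest rises and 15 largest falls among called genes that averaged 5 CPM or more and did not overlap between groups, up to 4 members of each list with the smallest p, members that define a cell type, and the 5 largest interactions each way. Predicted gene models are not named. Other genes given as examples were chosen after their values were seen. Members and gene lists were chosen with earlier results of these data known. Promoter sequences are from RefSeq, build GRCm38.p6, and no coordinate was converted between builds. Some genes that fall under this rule are not reported here.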

Additional observations from a re-analysis of the deposited data

Results flagged for a closer look

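For 9737 genes the Hom over Het change differed between nuclear and total RNA by the interaction test (edgeR's quasi-likelihood test, adjusted over 15271 genes). The nuclear and total libraries of Het and of Hom also differed in Xist and Y-linked transcripts, and this cannot be told apart from the RNA fraction. The 5 largest differences in each direction are given as log2, nuclear minus total.

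The enzyme Dpys differed by 7.64: it was higher in nuclear RNA of Hom but went from a mean of 39.0 CPM in Total_Het to 0.775 CPM in Total_Hom. Acsm3 differed by 6.48, with total RNA means of 703 and 3.81 CPM. Akr1c18 differed by 4.97, with total RNA means of 17.3 and 1.06 CPM. Inmt differed by 4.599 and Slc51a by 4.27, and their Total_Hom means were 32.6 and 6.23 CPM.

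On the opposite side Ugt1a2 differed by -8.23, with total RNA means of 1.09 CPM in Het and 431 CPM in Hom. Ugt1a2 shares exons with its neighbours in the Ugt1a cluster, so its counts are uncertain. Lcn2 differed by -6.74, since its nuclear RNA fell while its total RNA rose from 9.79 to 78.6 CPM. S100a8 differed by -5.49 and the fatty acid hydroxylase Cyp4a14 by -5.41, the latter with total RNA means of 3.61 and 275 CPM. The mucin Muc4 differed by -4.95.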

How the results depend on the processing

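The alternatives were checked for 215 genes: Nup93, the 30 largest rises and falls and the list members with the smallest p. None of these reversed its direction in 17 alternatives of the nuclear fit. With a mean of at least 5 CPM only 194 of the 215, and 26 of the 30, were left to compare. Other genes given as examples were not checked in this way. Both counts of calls stayed within 1.5 times their value in each alternative. Calls of higher and lower genes were 2734 and 2567 with DESeq2, 2257 and 4475 with library totals alone, and 2699 and 2657 with a mean of at least 5 CPM. Leaving out 1 library gave 2791 to 3137 higher and 2980 to 3400 lower genes. Of the 215 genes checked 4 lost a call in some alternative: Nup93 in 7, Akr1b7 in 5, H19 in 2 and Xpot in 1. Replicate numbers did not pair the libraries: same-numbered Het and Hom libraries correlated in their deviations at -0.121, 0.0845 and 0.036, and a replicate block gave 3266 higher and 3303 lower calls, and 4757 and 4837 for the interaction. The alternative without Rn45s, Lars2 and Mir6236 was chosen after seeing the data. With DESeq2 the mRNA export factors called lower went from 7 to 4 and the nuclear-retained RNAs from 7 to 4. Low counts limit the lymphocyte, neutrophil and cell cycle lists, most of whose members lie under 5 CPM.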
